A study of Mus musculus with 12 samples.

Results

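The mitochondrial genome gave 67 of the 4762 clusters in this PAR-CLIP list, all rows placed on that chromosome on either strand. PAR-CLIP feeds cells 4-thiouridine, fixes labelled RNA to bound protein with 365 nm light and sequences what is recovered, and a cluster is a run of overlapping reads. The mitochondrial clusters held 12482 of the 553902 reads summed over the list, or 2.25% (Wilson 95% interval 2.22 to 2.29). Each was assigned, at its midpoint, to the mitochondrial gene on its own strand and on the opposite strand. All intervals here treat the counts as independent and hold no replicate error. Reads lacked molecular identifiers and may not be independent, so intervals of read shares may be too narrow even for counting error.

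The 12 libraries came from female C57BL/6 neural stem cell lines made from E14.5 embryos, in 3 groups of 4. Cells of the first group were Smchd1GFP/GFP, with both copies of the chromatin protein Smchd1 tagged, and were crosslinked. The second group was also Smchd1GFP/GFP and was titled as not crosslinked, although its protocol text states irradiation. The third group was Smchd1+/+, untagged and crosslinked. Per the labels all cells received 100 µM 4-thiouridine for 24 hours, and the stated light dose was 0.15 J/cm2. The list gives 1 read count per cluster for the whole series. The tagged libraries therefore could not be set against either control, no value below has a replicate error, and no difference between groups was tested. The list does not measure expression, so the labelled cell type could not be checked with it. Of 15 neural stem cell markers, Slc1a3 (15 reads) and Msi2 (26 reads) had a cluster on their strand, and of 18 neuron, astrocyte, oligodendrocyte, microglia and blood markers 0 had one, beside 3.64% of all nuclear protein-coding genes.

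Mitochondria carry a small circular genome whose strands are both transcribed nearly end to end. The long transcripts are cut, mostly at the tRNAs that lie between the other genes, into ribosomal RNAs, messenger RNAs and tRNAs. RNA of the plus strand as numbered here holds 28 of the 37 genes. RNA of the minus strand holds mt-Nd6 and 8 tRNAs and is otherwise antisense to genes. Antisense mitochondrial RNA is known to be degraded quickly, and unremoved it can pair with sense RNA. Smchd1 itself is known as a nuclear protein.

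The sequences below carry the main patterns: the clusters with the most reads, the leading cluster of each class of genes, and a pair that begins at 1 site on opposite strands. Each was read from the deposited list and is written 5′ to 3′ on its own strand (mm10), with capitals for the first bases AC where the cluster begins with them. Of clusters over 120 bases the first 100 bases are shown.
mt-Rnr1, plus strand, chrM:600-695, 1881 reads: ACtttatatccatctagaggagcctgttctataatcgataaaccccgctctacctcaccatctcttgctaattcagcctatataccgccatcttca
mt-Rnr1, minus strand, chrM:797-896, 1858 reads in the whole cluster: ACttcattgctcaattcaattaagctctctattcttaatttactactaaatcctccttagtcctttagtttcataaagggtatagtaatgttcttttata
mt-Rnr2, minus strand, chrM:1891-1990, 1195 reads in the whole cluster: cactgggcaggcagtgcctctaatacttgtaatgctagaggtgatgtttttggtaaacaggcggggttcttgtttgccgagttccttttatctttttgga
mt-Rnr1, minus strand, chrM:494-593, 589 reads in the whole cluster: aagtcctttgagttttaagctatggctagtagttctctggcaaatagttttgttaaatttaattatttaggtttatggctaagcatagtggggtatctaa
mt-Nd2, plus strand, chrM:4138-4222, 337 reads: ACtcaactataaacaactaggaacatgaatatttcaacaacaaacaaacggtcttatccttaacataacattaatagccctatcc
mt-Nd2, minus strand, chrM:4050-4137, 218 reads: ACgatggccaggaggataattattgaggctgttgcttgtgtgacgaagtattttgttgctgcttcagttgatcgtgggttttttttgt
mt-Cytb, plus strand, chrM:14495-14579, 280 reads: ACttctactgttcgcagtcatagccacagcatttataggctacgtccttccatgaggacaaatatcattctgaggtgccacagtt
mt-Co3, plus strand, chrM:9014-9098, 140 reads: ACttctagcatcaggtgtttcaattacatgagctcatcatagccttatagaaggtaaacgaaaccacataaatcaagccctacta
mt-Tm, minus strand, chrM:3824-3909, 127 reads: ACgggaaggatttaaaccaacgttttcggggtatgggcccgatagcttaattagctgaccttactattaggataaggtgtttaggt
mt-Atp6, minus strand, chrM:7992-8075, 47 reads: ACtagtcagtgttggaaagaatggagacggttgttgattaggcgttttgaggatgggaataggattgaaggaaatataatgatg

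Clusters lay on both strands of the mitochondrial genome. The plus strand had 38 clusters with 5784 reads and the minus strand 29 clusters with 6698 reads, so the minus strand held 53.7% of the reads (interval 52.8 to 54.5) and 43.3% of the clusters (interval 32.1 to 55.2). The median cluster had 80.5 reads on the plus and 104 on the minus strand. The lean to the minus strand did not hold under every setting. It was 63.2% without the leading plus-strand cluster at 600 to 695, 55.4% without that cluster and its minus-strand neighbour at 694 to 896, and 45.5%, the opposite lean, with only the deeper of clusters that overlap on opposite strands. Of the bases up to the end of the last annotated gene, 46.4% lay in a cluster, 27.2% on the plus strand and 23.5% on the minus strand. Only 669 bases lay in clusters of both strands, 9.35% of those covered, and 30 clusters overlapped one of the opposite strand.

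Clusters of the mitochondrial genome were deep and often long beside the rest of the list. Their median was 96 reads (quartiles 37 to 177, range 2 to 1881), against 14 reads (quartiles 9 to 24) for the 4695 nuclear clusters. The median lengths were 86 and 85 bases. Clusters over 100 bases made up 17 of the 67 (25.4%, interval 16.5 to 36.9) and held 44.5% of the mitochondrial reads, while 72 nuclear clusters (1.53%, interval 1.22 to 1.93) were that long. Reads were concentrated: 10 clusters accounted for 59.2% of the mitochondrial sum, and the leading 2, both in mt-Rnr1, had 3739 reads together.

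The ribosomal RNA genes held more than any other class, 6770 reads in 11 clusters or 54.2% of the mitochondrial reads (interval 53.4 to 55.1). The 7 complex I genes held 31.8%, mt-Cytb of complex III 6.47%, the complex IV genes 4.81%, the tRNA genes 1.95% and the complex V genes 0.785%. Per kilobase of gene, with both strands summed, the order was ribosomal RNA (2669 reads), complex III (706), complex I (623), complex IV (199), tRNA (162) and complex V (111). Without the 2 clusters with the most reads, both in mt-Rnr1, the ribosomal RNA share was 34.7%.

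**Figure D1:**
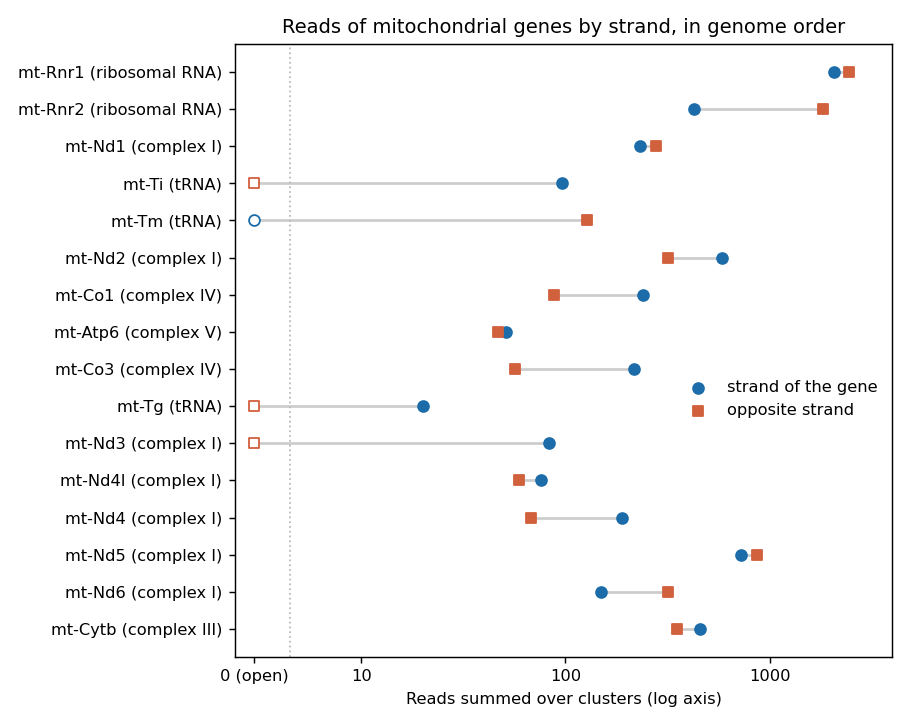
Reads summed over clusters (log axis) for the 16 mitochondrial genes with a cluster midpoint on either strand, in genome order; circles are the strand of the gene, squares the opposite strand, and open symbols left of the dotted line are 0. mt-Rnr1 and mt-Rnr2 lead. mt-Rnr1, mt-Rnr2, mt-Nd1, mt-Tm, mt-Nd5 and mt-Nd6 have more reads on the opposite strand, and the other genes shown have more on their own.

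mt-Rnr1, which encodes the RNA of the small mitochondrial ribosomal subunit (chrM:70-1024), had 2063 reads on its strand and 2447 on the opposite strand, each in 2 clusters. Most of this, 82.9%, came from 2 clusters: the plus-strand cluster at 600 to 695 had 1881 reads and the minus-strand cluster at 694 to 896 had 1858, the 2 highest values of the mitochondrial genome. Nearer the start of the gene, 182 reads lay on the plus strand at 73 to 198 and 589 on the minus strand at 158 to 593. By position the plus-strand cluster is sense to the ribosomal RNA and the minus-strand cluster antisense to it. Antisense reads of the whole gene slightly outnumbered sense reads. The 2 leading clusters begin at opposite ends of 1 stretch between sites of the word GTAC, described below. Here and below, sense and antisense name only the strand of a cluster. Whether the clusters reflect transcripts of both strands was not tested.

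mt-Rnr2, which encodes the RNA of the large subunit (chrM:1094-2675), leaned to the antisense strand. It had 425 reads in 3 clusters on its strand and 1835 in 4 clusters on the opposite strand, so 81.2% were antisense (interval 79.5 to 82.8). The minus-strand cluster at 1474 to 1990, the longest of the mitochondrial genome with 517 bases, had 1195 of them. The other 3 antisense clusters had 348, 227 and 65 reads. On the sense strand the clusters had 215, 142 and 68 reads. The antisense share of mt-Rnr2 lay above that of mt-Rnr1, 54.3% (interval 52.8 to 55.7), and the difference was not tested.

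All 7 complex I genes, which encode core subunits of the NADH dehydrogenase, had a cluster on their own strand, with 2046 reads on the gene strand and 1917 opposite (48.4%, interval 46.8 to 49.9). mt-Nd5 (chrM:11742-13565) had 6 clusters on each strand, with 729 reads sense and 873 antisense. mt-Nd2 (chrM:3914-4951) had 586 sense and 320 antisense reads in 2 clusters each. mt-Nd1 (chrM:2751-3707) had 233 and 277, in 1 cluster each. Which strand held more thus differed between these genes, but not firmly. The interval of the antisense share of mt-Nd1, 49.97% to 58.59%, included equal shares. For mt-Nd5 the larger part depended on the assignment. A plus-strand cluster of 320 reads at 13501 to 13965 begins inside mt-Nd5 but was counted, at its midpoint, for mt-Nd6. Counted for mt-Nd5 instead, it would make sense reads the larger part. mt-Nd4 (chrM:10167-11544) had 190 sense and 68 antisense reads. Its neighbour mt-Nd4l (chrM:9877-10173), which overlaps it, had 76 and 59, including 64 sense reads of a cluster at 10130 to 10213 whose midpoint lay in both genes and which was counted for mt-Nd4l. mt-Nd3 (chrM:9459-9806) had 83 sense reads in 1 cluster and no antisense cluster.

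mt-Nd6 (chrM:13552-14070) is the only protein-coding gene of the minus strand. It had 149 reads on its strand, 115 at 13744 to 13830 and 34 at 13992 to 14077. The plus-strand cluster at 13501 to 13965, which begins inside the end of mt-Nd5 and runs across most of mt-Nd6, had 320, so 68.2% of the reads of mt-Nd6 (interval 63.9 to 72.3) were opposite to it. For a minus-strand gene as for mt-Rnr2 on the plus strand, the opposite strand held the larger part by midpoint. With the gene taken at the 5′ end instead, the cluster at 13501 to 13965 counts for mt-Nd5.

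mt-Cytb (chrM:14145-15288), which encodes the cytochrome b subunit of complex III, had 457 sense and 351 antisense reads in 4 clusters each. Its sense clusters ranged from 2 reads, the lowest value of the mitochondrial genome, to 280. Among the complex IV genes, mt-Co1 (chrM:5328-6872), which encodes the catalytic subunit of cytochrome c oxidase, had 239 sense and 88 antisense reads. mt-Co3 (chrM:8607-9390) had 216 sense reads in 3 clusters and 57 antisense in 2. Complex IV thus leaned to the sense strand, with 24.2% of its reads opposite (interval 20.9 to 27.7). Every mt-Co3 cluster and every antisense cluster of complex IV shared sequence with a nuclear cluster, as described below. Only the mt-Co1 clusters at 5891 and 6330, both sense, shared none. In complex V, the ATP synthase, mt-Atp6 (chrM:7927-8607) had 51 sense and 47 antisense reads.

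mt-Co2 (chrM:7013-7696) and mt-Atp8 (chrM:7766-7969) had no base in a cluster on either strand. They lay in the longest stretch without a cluster up to the last annotated gene, 1272 bases from 6720 to 7991, with mt-Ts1, mt-Td and mt-Tk. The next longest, 1151 bases from 4267 to 5417, took in the end of mt-Nd2, the tRNA genes mt-Tw, mt-Ta, mt-Tn, mt-Tc and mt-Ty and the start of mt-Co1. The main control region, or D-loop, which follows mt-Tp from base 15423 and holds the promoters, had 0 clusters. The clusters ran from base 73 to base 15290. The sources used here give no threshold for the list, so the reads of places below it could not be seen.

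Of the 37 genes, 15 had a cluster midpoint on their own strand, against 1.87% of the 55499 nuclear genes. They were 11 of the 13 protein-coding genes (3.64% of nuclear protein-coding genes had one), both ribosomal RNA genes and 2 of the 22 tRNA genes. The mitochondrial genes lie side by side on 1 molecule, so this is a description and was not tested.

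tRNA genes were mostly without clusters. They are 59 to 75 bases long, shorter than a usual cluster, and 3 held a midpoint: mt-Ti, the isoleucine tRNA, with 96 reads on its strand, mt-Tg, the glycine tRNA, with 20 on its strand, and mt-Tm, the methionine tRNA, with 127 on the opposite strand. The same 3 clusters were those that crossed a tRNA end with at least 10 bases on each side. The cluster at 3692 to 3776 ran from mt-Nd1 through mt-Ti, that at 9353 to 9437 from mt-Co3 into mt-Tg, and that at 3824 to 3909 joined mt-Tm and mt-Tq on the minus strand. Sequence on both sides of a tRNA end thus lay in 1 cluster, but whether single reads crossed it cannot be seen in the list. Another 3 clusters passed a tRNA end by fewer than 10 bases, at mt-Tm with mt-Nd2, at mt-Te with mt-Nd6 and at mt-Tt with mt-Cytb. The tRNA genes mt-Tf, mt-Tv, mt-Tl1, mt-Tr, mt-Th, mt-Ts2, mt-Tl2 and mt-Tp, beside those in the 2 long stretches above, had no base in a cluster.

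The starts of the mitochondrial clusters followed a short sequence. Of the 67, 48 began with AC (71.6%, interval 59.9 to 81.0), while AC made up 7.79% of adjacent bases on the plus strand and 2.59% on the minus strand. In nuclear clusters the share was 79.0% (interval 77.8 to 80.2). By reads the shares were unlike: clusters beginning with AC held 73.4% of the mitochondrial reads and 20.9% of the nuclear reads. In 33 of the 48 the bases just upstream were GT, so that the cluster began in the middle of the word GTAC, which reads the same on both strands. These 33 clusters held 8256 reads, 66.1% of the mitochondrial reads, with a median of 127 reads. The 2 leading clusters, in mt-Rnr1, gave 3739 of the 8256. The 15 that began with AC elsewhere had a median of 46 and the 19 with other starts a median of 59. The other starts included long minus-strand clusters of the ribosomal RNA genes, 1474 to 1990, 158 to 593 and 2138 to 2364. A cluster of mt-Rnr2 at 2481 to 2566 began 1 base before such a point, with 227 reads.

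**Figure D2:**
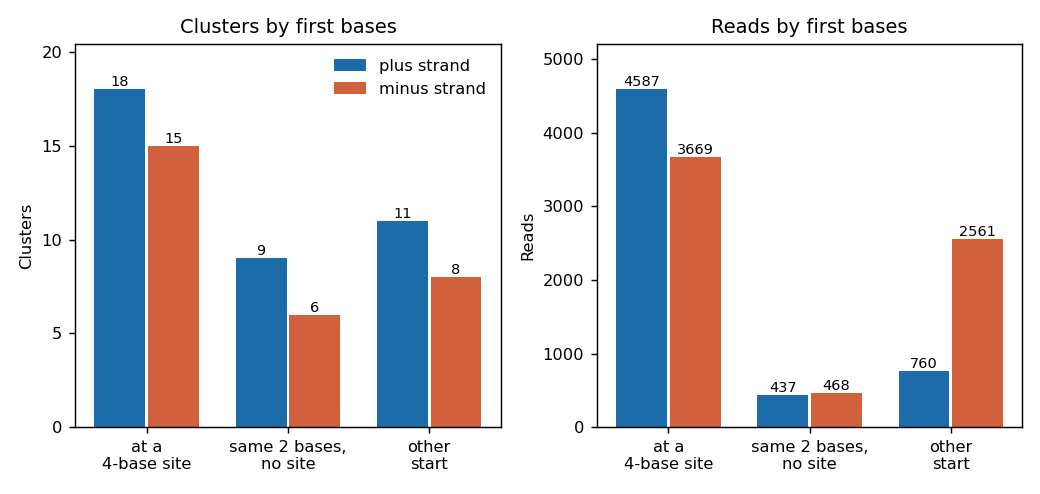
Clusters (left) and reads (right) of the mitochondrial genome by the first bases of the cluster: at a 4-base GTAC site, with the same first bases AC but no site, or with another start; bars are strands. Sites gave 18 plus-strand and 15 minus-strand clusters, and the minus strand had 2561 reads in clusters with another start.

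The annotated mitochondrial sequence held GTAC at 31 places. A cluster began at 23 of them (74.2%, interval 56.8 to 86.3): on both strands at 10, on the plus strand alone at 8 and on the minus strand alone at 5. At the mt-Nd2 site the 2 clusters printed above meet base to base, 4137 being the first base of the minus-strand cluster and 4138 the first of the plus-strand one. The site and its flanks on the plus strand, with the word in capitals, are as follows.
mt-Nd2, chrM:4121-4154: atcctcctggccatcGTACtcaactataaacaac
mt-Rnr1, chrM:583-616: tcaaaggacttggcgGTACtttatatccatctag
mt-Rnr1, chrM:880-913: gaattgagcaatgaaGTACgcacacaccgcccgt

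The last 2 of these are the starts of the 2 leading clusters. The word was rare inside clusters: of the 47 clusters of 82 to 88 bases, 1 held it (2.13%), while 17.0% of all 86-base windows of the annotated sequence did. Of all 67, 5 clusters held it (7.46%), each on the plus strand. They were 84 to 144 bases long, so the range of 82 to 88 bases left out most of them. All 12 genes that contained a site had bases in a cluster, and of the 25 genes without one 7 did. Length differs between the 2 sets: 21 of the 25 are the short tRNA genes, 5 of them with bases in a cluster. Of the 4 protein-coding genes without a site, mt-Atp6 and mt-Nd6 had clusters and mt-Co2 and mt-Atp8 had none. The 2 longest runs of sequence without a cluster held no site, but the third, 866 bases from 2567 to 3432 that run from mt-Rnr2 over mt-Tl1 into mt-Nd1, held 2. mt-Nd5 had 6 sites, mt-Rnr2 5, and mt-Nd1, mt-Co1 and mt-Co3 3 each.

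Cutting the sequence on paper at these words gave 30 stretches between neighbouring sites. In 9 of them a plus-strand cluster began at one end and a minus-strand cluster at the other, and these 18 clusters held 51.6% of the mitochondrial reads. The 2 leading clusters, in mt-Rnr1, gave 3739 of those reads. The stretch in mt-Rnr1 from 600 to 896, 297 bases long, had 1881 reads at its plus-strand end and 1858 at its minus-strand end, so the plus-strand end held 50.3% (interval 48.7 to 51.9). The stretch of 259 bases in mt-Nd1 had 233 and 277, and that of 228 bases from mt-Tm into mt-Nd2 had 249 and 218. In these 3 stretches the reads of the opposite ends were close in number. Another 15 stretches had a cluster at 1 end only, such as 337 reads at the plus-strand end of the stretch from 4138 to 5417 and 309 at the minus-strand end of that from 12492 to 12731.

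In mt-Nd5 the stretch of 275 bases had 146 and 121 reads and that of 274 bases 172 and 165. The stretch of 218 bases from the end of mt-Nd1 to mt-Tm had 96 and 127. Across the 6 stretches of 218 to 297 bases the ratio of the plus-strand to the minus-strand end ranged from 0.756 to 1.21. The 3 longer stretches varied more, with 36 and 47 reads over 751 bases in mt-Nd4, 320 and 134 over 994 bases from mt-Nd5 to mt-Cytb, and 280 and 77 over 623 bases in mt-Cytb. In 6 of the 9 stretches the interval of the share at the plus-strand end included equal shares. In the 3 others it did not: the stretch of 218 bases leaned to the minus-strand end, and those of 994 and 623 bases to the plus-strand end.

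**Figure D3:**
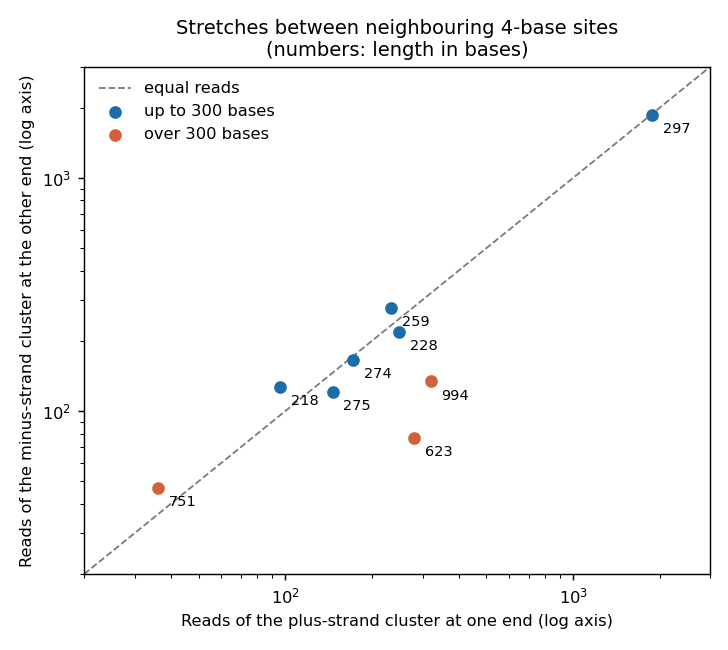
Reads of the plus-strand cluster at one end (x, log axis) and of the minus-strand cluster at the other (y, log axis) of the 9 stretches between neighbouring GTAC sites with a cluster at both ends; the dashed line marks equal reads and numbers give the length in bases. The 6 stretches up to 300 bases lie near the line, and those of 623 and 994 bases lie below it.

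Stretches of every length class had such clusters. Of the 7 stretches up to 150 bases, 4 had a cluster at 1 end and 0 at both, with 279 reads at their ends. Of the 9 of 151 to 300 bases, 8 had a cluster at 1 or both ends and 6 at both, with 5917 reads. The mt-Rnr1 stretch from 600 to 896 gave 3739 of these, and without it 2178 remained. Of the 7 of 301 to 600 bases, 5 had one and 0 at both ends, with 496 reads, and all 7 longer stretches had one, 3 at both ends, with 1564 reads. The length classes were chosen after the values were seen. How the sites came to mark the starts was not tested.

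Part of the mitochondrial genome has a copy in the nuclear genome. On chromosome 1 the annotation lists 7 pseudogenes side by side, Gm29216, Gm28661, Gm10925, Gm28437, Gm28438, Gm10222 and Gm28439, whose sequence matches mitochondrial bases 6394 to 11042, from mt-Co1 to mt-Nd4. Between 97.2% and 100% of the 30-base words of each were found in the mitochondrial sequence. In this stretch 18 mitochondrial clusters had 708 reads, a median of 28 (range 8 to 140), or 152 reads per kilobase. The rest of the annotated sequence after the ribosomal RNA genes had 38 clusters with 5004 reads, a median of 104 (range 2 to 337), or 624 reads per kilobase. mt-Co2, mt-Atp8, mt-Atp6, mt-Co3, mt-Tg, mt-Nd3 and mt-Nd4l lie wholly in it.

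Of the mitochondrial clusters, 16 had a cluster of shared sequence in the same orientation on chromosome 1, between 24611843 and 24615943. In 15 of the 16 pairs the read counts were equal, 140 and 140 for the mt-Co3 cluster at 9014 and 83 and 83 for the mt-Nd3 cluster at 9469, for example. Equal counts included all 9 pairs of identical sequence. The 1 unequal pair, the mt-Atp6 cluster at 8001, had 12 reads on the mitochondrial genome and 17 on chromosome 1. Not every cluster of the copied stretch had such a pair. The minus-strand cluster at 9963 to 10047, with 59 reads, shared words with a nuclear cluster only in the opposite orientation. The minus-strand cluster at 10964 to 11048, with 21 reads, shared none. From which of the 2 genomes the reads of such pairs came cannot be told apart in the list.

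Copies elsewhere were unequal. On chromosome 10, 2 clusters share words with mt-Rnr2: 244 reads against 1195 of the long antisense cluster, and 82 against 142 at 1737. On chromosome 2, 2 clusters share words with mt-Co1, with 40 reads against 78 and 31 against 88. Of these pairs 0 had identical sequence, and the reads are sums not adjusted for cluster length. The mitochondrial clusters at 1474, 5418 and 5647 were 517, 168 and 205 bases long. Their nuclear partners were shorter, at 96077635 to 96077717, 22589474 to 22589557 and 22589243 to 22589327. How far length accounts for the unequal sums was not tested. The pairs above need words in the same orientation, which leaves out the cluster at 9963 to 10047. In either orientation, 21 of the 67 mitochondrial clusters, with 2190 reads, shared a 30-base word with a nuclear cluster. The 46 that shared none had 10292 reads. The 2 leading clusters of mt-Rnr1 were among the 46. With those 46 clusters alone, 10 genes had a cluster on their own strand and the minus strand held 51.0% of the reads.

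**Figure D4:**
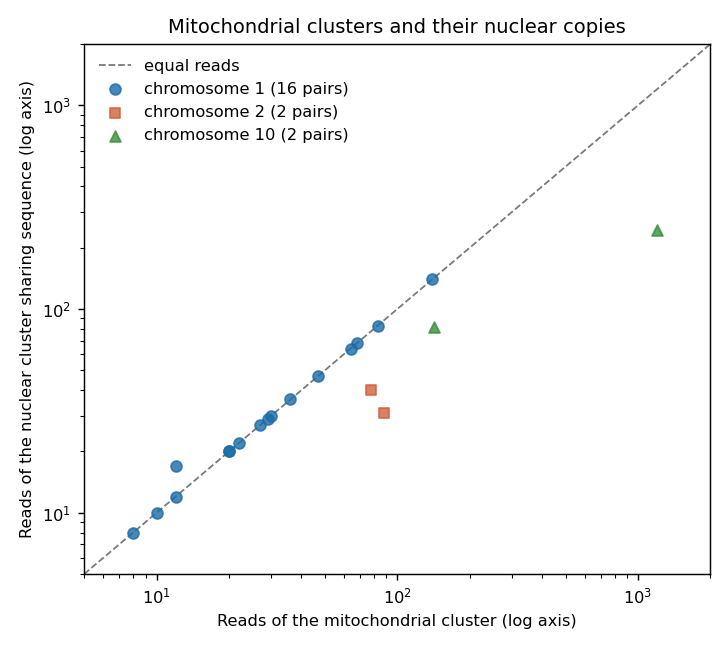
Reads of a mitochondrial cluster (x, log axis) and of the nuclear cluster sharing a 30-base word in the same orientation (y, log axis), 20 pairs; the dashed line marks equal reads and symbols give the nuclear chromosome. Of the 16 pairs on chromosome 1, 15 lie on the line, and the 4 pairs on chromosomes 2 and 10 lie below it. Reads are not adjusted for cluster length.

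Nuclear genes that serve the same pathway were counted in the same way, with no test. Of 78 nuclear genes for respiratory chain subunits, 2 had a cluster on their strand: Cox6b1, a subunit of cytochrome c oxidase, with 19 reads, and Atp5o, a subunit of the ATP synthase stalk, with 30 in 2 clusters. Of 48 genes for mitochondrial transcription and RNA processing, Fastkd5, which acts on mitochondrial messenger RNAs, had 13 reads. Of 22 genes for mitochondrial aminoacyl-tRNA synthetases, Fars2 had 13, and of 80 mitochondrial ribosomal protein genes 0 had a cluster. In all 4 of 228 had one (1.75%), beside 3.64% of all nuclear protein-coding genes. With clusters that share no 30-base word with another the count was also 4 (1.75%), beside 2.89%. In exons on either strand it was 3 (1.32%), beside 1.54%. The last count included Lars2, with 1410 reads in 1 cluster opposite to the gene. Atp5o and Fars2 were not in it, as the midpoints of their clusters lay outside exons. Both have long annotated spans, chr16:91684398-91926982 and chr13:36117412-36726280.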

How the data were processed

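The 12 PAR-CLIP libraries are represented by 1 list of clusters. The authors deposited raw counts, 1 whole number of reads for each cluster, not split by library. The submitters' processing notes name bcl2fastq, TopHat2 2.1.0 and the build mm10. How clusters were called, from which libraries, and how reads with several matches were placed is not stated in the sources used here. Depth per library is unknown.

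Start and end were taken as 1-based, both included, and compared with GENCODE M21 transcripts on GRCm38, the assembly of mm10: all 7823 cluster bases inside mitochondrial genes were equal to the transcript sequence. That sequence, 15365 bases, was searched for GTAC, and the control region sequence was not used here. Where 2 genes of 1 strand shared a midpoint, the first was taken. Nuclear copies were found by shared words of 30 bases. Shares have Wilson intervals (SciPy 1.17.1), and no test was run because the list has no replicates. All members are named. Printed sequences are the 4 clusters with the most reads, the leading cluster of each class and a pair at 1 site. Gene assignment was run on simulated clusters with midpoints drawn inside genes. That check used the same gene lookup as the assignment, so it was not an independent test. The members and lists were chosen with earlier results of these data known. Of the 229 names in the nuclear lists 228 were matched. Alternatives were cluster filters, strand overlap and gene assignment.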

Additional observations from a re-analysis of the deposited data

How the results depend on the processing

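No paired analysis was possible because reads are not split by library, and for the same reason no replicate could be left out. Values that moved beyond their counting interval follow, and the cause was not tested beyond what each setting leaves out. The minus-strand share of reads, 53.7%, was 63.2% without the leading cluster, 55.4% without the 2 leading clusters (a setting chosen after seeing the data), 51.0% without clusters that share a word with a nuclear one, 45.5% with only the deeper of clusters overlapping on opposite strands, and 43.3% with each cluster counted once. The share opposite to the gene, 55.0%, was 64.8%, 57.3%, 52.7%, 48.6% and 41.8% under the same settings, and 51.5% or 52.5% with the gene taken by most overlap or at the 5′ end. The strand that held more therefore changed under the last 2 of the shared settings. With each cluster counted once, however, the intervals were wide, 32.1% to 55.2% and 30.7% to 53.7%, and included equal shares. The ribosomal RNA share, 54.2%, was 46.1%, 34.7%, 52.8% and 49.0% under the first 4 settings. The mitochondrial share of all reads, 2.25%, was 1.92%, 1.59%, 1.87% and 1.68%, and 2.33% with clusters at or above the median of 14 reads. The share of the leading cluster, 15.1%, was 18.3% without shared words and 20.4% with the deeper cluster. Neither of the 2 values that follow counted as moved. The count of 15 genes, which has no interval, ranged from 10 to 16. The share beginning with AC stayed within its interval, from 70.8% to 76.1%.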

Other observations

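The bases of the clusters differed by strand as the genome does. Plus-strand mitochondrial clusters had 28.2% T and 11.6% G, and the annotated plus strand 28.7% and 12.4%. Minus-strand clusters had 36.9% T and 23.3% G, and the annotated minus strand 34.6% and 24.4%. Nuclear clusters had 31.3% T. T-to-C changes, the mark that crosslinking leaves, were not analysed here.

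In mt-Rnr2 the stretch between GTAC sites from 1272 to 2565 had 215 reads in the plus-strand cluster at one end, and the minus-strand cluster that began 1 base outside the other end had 227. In mt-Nd5 the minus-strand cluster at 12647 to 12731, with 309 reads, lay at a site and overlapped a plus-strand cluster of 237 reads at 12572 to 12691 that did not begin at one.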
